A study of Arabidopsis thaliana with 6 samples.

Results

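The tubulin genes of Arabidopsis thaliana were followed in whole plants of the wild type and of a double mutant that lacks the vacuolar exchangers CAX1 and CAX3, which move calcium out of the cytosol. A gene was taken as a member when a probe set of the array was paired with it alone and its symbol was TUA or TUB followed by a digit. This gave 7 members among the 13356 genes that such probe sets name, of which 2 code for alpha-tubulin (TUA1 and TUA6) and 5 for beta-tubulin (TUB1, TUB5, TUB6, TUB7 and TUB9). The RefSeq gene table lists 15 such genes, 6 for alpha- and 9 for beta-tubulin. TUA3 and TUA5 shared 1 probe set, which was not used, and TUA2, TUA4, TUB2, TUB3, TUB4 and TUB8 were not analysed here.

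Alpha- and beta-tubulin form the heterodimer from which microtubules are built. In plant cells, microtubules under the plasma membrane guide the cellulose synthase complexes and so the direction of cell expansion, and other arrays form the spindle and the phragmoplast of dividing cells. Land plants carry several genes for each subunit, and the encoded proteins are very alike, while the genes differ in the organs in which they are expressed.

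The samples were 3 arrays of Columbia-0 wild-type plants and 3 of the Cax1/Cax3 double mutant in the same ecotype, each hybridised with RNA of whole plants given as 40 days old. Plants had been raised for 10 days on medium with 0.5% sucrose and for 3 weeks in soil at 22 °C with 16 hours of light, and the soil stage ended when necrotic lesions began to show on the mutant. The labels do not give the mutant alleles, the number of plants in a sample or whether replicates were grown separately. A p-value here therefore sets a genotype difference only against the variation among these samples, and that variation may be technical. No named probe set measured CAX1 or CAX3, so the genotype labels had no check from the mutated genes.

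Levels are given on the log2 scale for each of 22746 probe sets, and every difference is the mutant minus the wild type. A gene is called lower or higher where limma's moderated test gave a Benjamini-Hochberg adjusted p under 0.05 over all probe sets. The level of different probe sets depends on their probes, so levels of different tubulin genes were not ranked. All 7 members lay above 4.70, the 95th percentile of 27 probe sets for bacterial transcripts, on all 6 arrays. In whole plants, fewer cells of a type and less RNA per cell cannot be told apart. Leaf genes were high in both genotypes, such as RCA, which codes for rubisco activase (13.82 in the wild type and 13.64 in the mutant), as was the root gene PYK10, a beta-glucosidase (11.98 and 11.93). The root-hair expansin gene EXPA7 lay just above the bacterial range (4.92 and 4.98).

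The first question was whether tubulin expression differed between the genotypes. The beta-tubulin genes TUB1, TUB6 and TUB9 fell in the mutant, to 0.549, 0.597 and 0.699 of their wild-type levels. The alpha-tubulin gene TUA6 and the beta-tubulin gene TUB7 had lower means in the mutant, with ratios of 0.676 and 0.744, and were not called. TUA1 and TUB5 stayed close to the wild-type level, with ratios of 0.953 and 0.960. No tubulin gene rose. Of all probe sets tested, 3.28% were called lower and 2.34% higher. The tubulin family was chosen with earlier results of these data known.

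**Figure D1:**
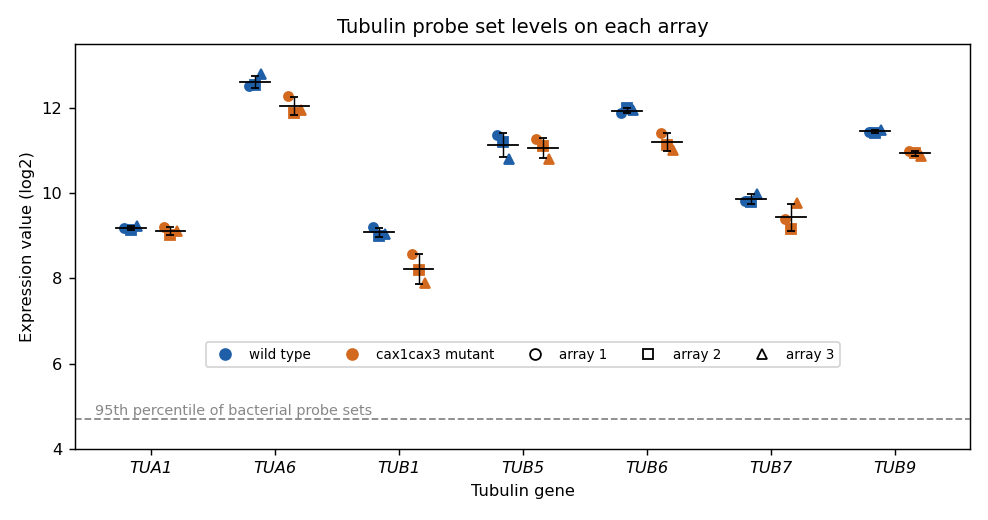
Log2 expression value (vertical axis) of each tubulin gene (horizontal axis) on the 3 wild-type arrays (blue) and the 3 mutant arrays (orange), with the array number as the symbol. Black bars show the group mean and SD (n = 3), and the dashed line is the 95th percentile of the bacterial probe sets (4.70). The genotypes do not overlap for TUA6, TUB1, TUB6, TUB7 and TUB9, and they overlap for TUA1 and TUB5.

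TUB1 (AT1G75780, probe set 262978_at) codes for a beta-tubulin known from roots and elongating seedling stems. Its values were 9.21, 8.99 and 9.05 on wild-type arrays 1, 2 and 3 and 8.58, 8.19 and 7.88 on the mutant arrays of the same numbers. Every mutant array lay below every wild-type array, by at least 0.41. The mean went from 9.08 ± 0.11 to 8.22 ± 0.35 (SD, n = 3), a difference of -0.87 ± 0.18 (SE, limma adjusted p = 0.0469). The mutant arrays spread more widely than the wild-type ones. This adjusted p is close to the threshold, and it was 0.167 without mutant array 2.

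TUB6 (AT5G12250, 250317_at) codes for another beta-tubulin. It read 11.87, 11.99 and 11.94 in the wild type and 11.42, 11.13 and 11.01 in the mutant. The wild-type arrays lay within a narrow range and the mutant arrays were all below it, with a gap of 0.44 between the groups. The difference was -0.74 ± 0.13 (SE, limma adjusted p = 0.0246). Without mutant array 2 the adjusted p was 0.110.

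TUB9 (AT4G20890, 254446_at), a beta-tubulin gene known for its expression in pollen, read 11.44, 11.42 and 11.49 in the wild type and 11.00, 10.94 and 10.86 in the mutant. Its replicates were the tightest of the called members, with an SD of 0.04 in the wild type and 0.07 in the mutant, and the groups were 0.42 apart. The difference was -0.52 ± 0.09 (SE, limma adjusted p = 0.0249), and the adjusted p was 0.102 without mutant array 2.

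The 3 calls did not hold in all fits that left out 1 array. TUB1 and TUB6 were called in 2 of the 6 such fits and TUB9 in 1. Leaving out any wild-type array ended all 3 calls, with adjusted p from 0.112 to 0.136 for TUB1, from 0.0689 to 0.108 for TUB6 and from 0.0783 to 0.101 for TUB9. Without mutant array 1, TUB9 had an adjusted p of 0.0505. The differences themselves moved little, from -1.05 to -0.69 for TUB1, from -0.86 to -0.66 for TUB6 and from -0.55 to -0.48 for TUB9. Each such fit compares 2 arrays with 3, and most of these fits also called fewer probe sets in all (147 to 947 lower, against 747 with all 6 arrays).

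**Figure D2:**
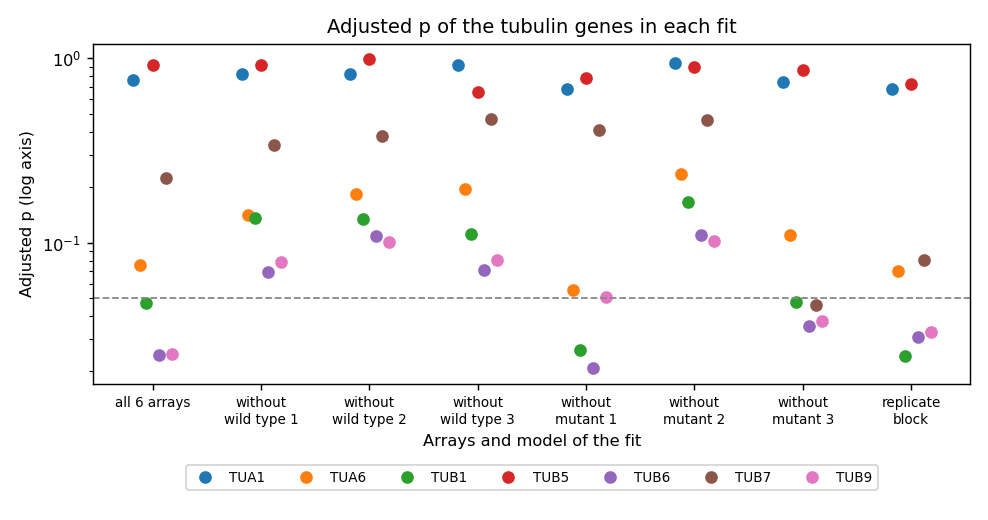
Limma adjusted p (vertical log axis) of each tubulin gene (coloured points) in the fit on all 6 arrays, in the 6 fits that leave out 1 array and in the fit with array number as a block. The dashed line is the threshold of 0.05. TUB1, TUB6 and TUB9 lie below it with all 6 arrays, with the block and without mutant array 3, and above it without mutant array 2 or any wild-type array.

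TUA6 (AT4G14960, 245270_at), an alpha-tubulin gene expressed throughout the plant and widely used in fusion with a fluorescent protein to show microtubules, read 12.51, 12.53 and 12.79 in the wild type and 12.29, 11.89 and 11.96 in the mutant. The groups did not overlap, with a gap of 0.23. Its difference of -0.57 ± 0.14 (95% confidence interval -0.91 to -0.22) was larger than that of TUB9, but its arrays spread more widely and it was not called (limma adjusted p = 0.0757). It was called with array weights (adjusted p = 0.0334), a fit that called 1560 of all probe sets lower, against 747 without weights.

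TUB7 (AT2G29550, 266295_at), a beta-tubulin gene, read 9.81, 9.78 and 9.98 in the wild type and 9.39, 9.15 and 9.76 in the mutant. The highest mutant array lay only 0.02 below the lowest wild-type array, so the separation of the groups rests on a gap smaller than the spread within either. The difference was -0.43 ± 0.17 (95% interval -0.83 to -0.03, limma adjusted p = 0.223). Without mutant array 3 it was -0.59 with an adjusted p of 0.0459. With array weights, of which mutant array 3 had the lowest (0.34), it was -0.55 with an adjusted p of 0.0394. Both arrays numbered 3 read higher than the others of their genotype for TUB7, by 0.34 on average over the pair.

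TUA1 (AT1G64740, 262885_at), the alpha-tubulin gene known for its expression in pollen, read 9.18, 9.13 and 9.22 in the wild type and 9.20, 9.02 and 9.11 in the mutant, and the groups overlapped. The difference was -0.07 ± 0.09, with a 95% interval from -0.29 to 0.15 (limma adjusted p = 0.768). A fall of the size seen for TUB9 lies outside that interval.

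TUB5 (AT1G20010, 261230_at) read 11.36, 11.20 and 10.81 in the wild type and 11.27, 11.11 and 10.81 in the mutant. Arrays with the same number were nearly level, and both arrays numbered 3 were the lowest of their genotype. The difference was -0.06 ± 0.18 (95% interval -0.49 to 0.38, limma adjusted p = 0.915), and its SE was 0.09 with array number as a block. This small difference turned to 0.06 without wild-type array 1 and to 0.07 without mutant array 3.

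**Figure D3:**
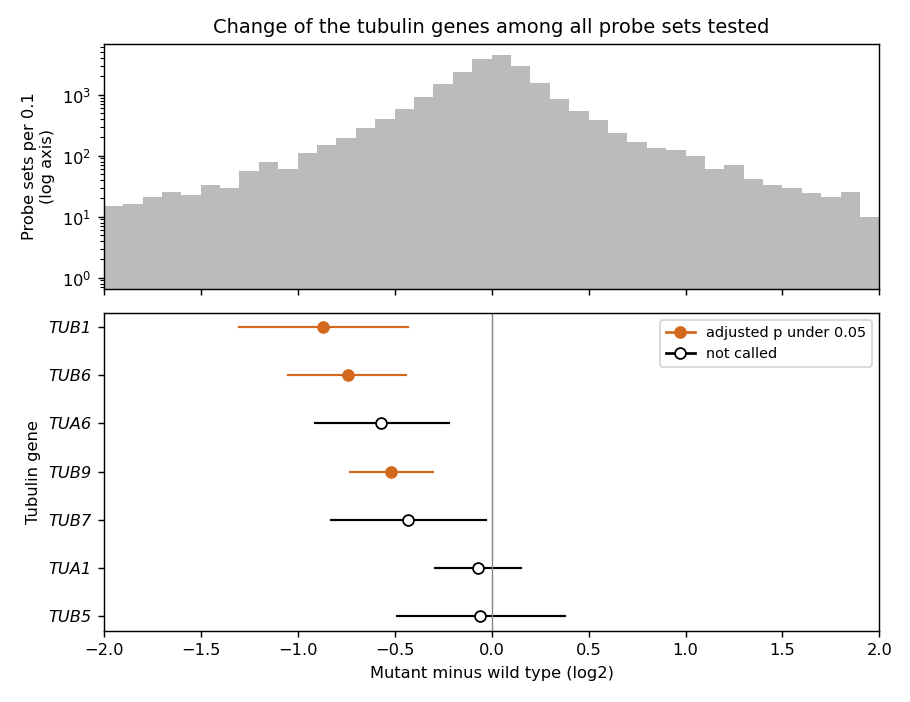
The upper plot counts all probe sets tested by their mutant minus wild-type difference (log2) in bins of 0.1, on a log axis; differences beyond the drawn range are left out. The lower plot gives each tubulin gene's difference with its 95% confidence interval from limma, filled where the adjusted p is under 0.05. All 7 differences lie below 0, from -0.87 for TUB1 to -0.06 for TUB5.

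Over the 7 members the median difference was -0.52, against 0.01 over all probe sets. All 7 differences were negative, as were 47.5% of those of all probe sets. The 2 alpha-tubulin genes had a median of -0.32 and the 5 beta-tubulin genes -0.52, but with 2 alpha members on the array the subunits were not compared by a test. The genotypes did not overlap, with the mutant lower, for 5 of the 7 members, and for 13.0% of all probe sets. The unadjusted p was under 0.05 for 5 of the 7, and 10.6% of all probe sets were lower at that level. TUB1 stood at the 2.69th percentile of all differences counted from the lowest, TUB6 at the 3.57th, TUA6 at the 5.76th, TUB9 at the 6.71st and TUB7 at the 8.74th. TUA1 and TUB5 stood at the 34.7th and 36.5th.

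In each array, TUB1, TUB6 and TUB9 were also set against TUA1 and TUB5. These pairs were chosen after their values were seen, to show the called genes beside those with the smallest differences, so they are a description with no test. The value of TUB6 minus that of TUA1 was 2.69, 2.85 and 2.72 on the wild-type arrays and 2.22, 2.11 and 1.90 on the mutant arrays. It was therefore lower on every mutant array, by 0.68 in the mean. For TUB9 minus TUA1 the mean went from 2.27 to 1.82, a change of -0.45. For TUB6 minus TUB5 it went from 0.81 to 0.12, and for TUB1 minus TUB5 from -2.04 to -2.84. Such a pair shows unequal change between 2 probe sets and not which of them changed.

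Within the array numbers, 6 of the 7 members were lower in the mutant in number 1, all 7 in number 2 and 6 in number 3. The medians of the members' differences were -0.42, -0.64 and -0.63, while those of all probe sets lay between -0.01 and 0.02. The exceptions were TUA1 in number 1 (0.02) and TUB5 in number 3 (0.01). The pair of number 1 showed the smaller differences for TUA6, TUB1 and TUB6, with values of -0.23, -0.62 and -0.44, against -0.83, -1.17 and -0.93 in number 3. Mutant array 1 had the highest of the 3 mutant values for 6 of the 7 members, the exception being TUB7.

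The 3 calls held when array number was fitted as a block, with limma adjusted p of 0.0243 for TUB1, 0.0306 for TUB6 and 0.0329 for TUB9. Across all probe sets the block raised the calls to 5.15% lower and 4.63% higher, and the tubulin count stayed at 3. The arrays numbered 3 stood apart from the others along the second principal component. With both of them left out, TUB6 was the member still called (adjusted p = 0.0481), and TUB1 and TUB9 had adjusted p of 0.0600 and 0.0585 with differences of -0.71 and -0.46.

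The next question was how other genes of microtubules and the cytoskeleton behaved. Of 47 probe sets in 7 lists, 5 fell and 1 rose, beside 3.28% and 2.34% of all probe sets, and the median difference was -0.24. The annotation named few members of most lists, and the lists were chosen with earlier results of these data known. Genes for a pair of microtubule-associated proteins fell, and by more than any tubulin gene. SP1L5, a relative of SPIRAL1, which binds microtubules and acts in directional growth, read 7.93, 8.41 and 8.55 in the wild type and 6.69, 6.01 and 5.68 in the mutant. That is a difference of -2.17 ± 0.28 (SE, limma adjusted p = 0.0111), or 4.50-fold. AT3G23090, whose synonym WDL3 places it in the WAVE-DAMPENED2-like family of microtubule-binding proteins, went from 8.33 ± 0.09 to 7.09 ± 0.26, a difference of -1.25 ± 0.15 (limma adjusted p = 0.00861). Both genes lost their call without mutant array 2 (adjusted p = 0.0633 and 0.0518).

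In that list of 8 genes, 2 fell and none rose, beside 3.28% and 2.34% of all probe sets. All 8 differences were negative, as were 47.5% of those of all probe sets, and the median was -0.43. SPR1 itself had a difference of -0.06, and its relatives SP1L2, SP1L3 and SP1L4 had differences of -0.66, -0.32 and -0.47 without being called. TON1B, which acts in the preprophase band, had -0.39, and ATMAP65-6, which codes for a MAP65 microtubule-bundling protein, had -0.08. The members of this list thus ranged from near the wild-type level to a ratio of 0.222 for SP1L5.

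Genes for making the tubulin dimer were named for 2 folding cofactors, and neither was called. POR, cofactor C, had a difference of -0.25 (limma adjusted p = 0.233) and PFI, cofactor E, 0.09. Neither of 2 kinesin genes was called. KINESIN-13A, a kinesin known from trichome and wall patterning, read 9.87, 9.71 and 9.68 in the wild type and 9.55, 9.41 and 9.38 in the mutant, close to the same shift on each array number (-0.30 ± 0.10, limma adjusted p = 0.166).

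Proteins of the IQD family bind calmodulin, and several bind microtubules, so they link calcium signals to the cytoskeleton. With all 6 arrays, equal weights and no block, none of the 15 IQD genes was called, beside 3.28% lower and 2.34% higher of all probe sets. Their median was -0.24, and 11 differences were negative, as were 47.5% of those of all probe sets. A single IQD gene was called lower without mutant array 1, where 469 of all 22746 probe sets were. A single one was likewise called lower with array weights, where 1560 of all probe sets were. A fit with the number as a block called 3 lower, where it called 5.15% of all probe sets lower. They were IQD28 (-0.75, limma adjusted p = 0.0388), IQD31 (-0.55, adjusted p = 0.0240) and IQD30 (-0.73, adjusted p = 0.0384), of which the last 2 were picked out after their values were seen. Without the block their adjusted p were 0.166, 0.109 and 0.0785.

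Of 12 genes for actins and actin-binding proteins, 3 fell and 1 rose, beside 3.28% and 2.34% of all probe sets. With subtracted array medians, and likewise with an intensity trend and robust eBayes, 1 gene of this list was called lower. These fits called 750 and 733 of all probe sets lower. ACT11, an actin gene known for its expression in reproductive organs, read 9.39, 9.26 and 9.59 in the wild type and 8.27, 8.19 and 7.91 in the mutant. It fell by 1.29 ± 0.14 (SE, limma adjusted p = 0.00685) and kept its call in each fit with 1 array left out. The NET proteins tie actin filaments to membranes. NET1A fell by 0.42 and NET4B rose by 1.09 (limma adjusted p = 0.0435 and 0.0443). NET1A lost its call in all 6 fits without 1 array and NET4B in 5 of them. NET2D, chosen after its values were seen because it completes the count, had a difference of -0.81 (adjusted p = 0.0493, and 0.0563 with the block). The pollen actin gene ACT12 lay within the bacterial range, at 4.44 and 4.31.

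Of 2 genes for cellulose synthesis at the plasma membrane, neither was called. COB, which codes for the anchored wall protein COBRA, had a difference of -0.30, and GH9A3, a relative of the endoglucanase KORRIGAN, had -0.96 (limma adjusted p = 0.0741). None of 6 genes for Aurora kinases and spindle checkpoint proteins was called. Their median was -0.13, and BUBR1 had the largest difference (-0.33, limma adjusted p = 0.311).

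**Figure D4:**
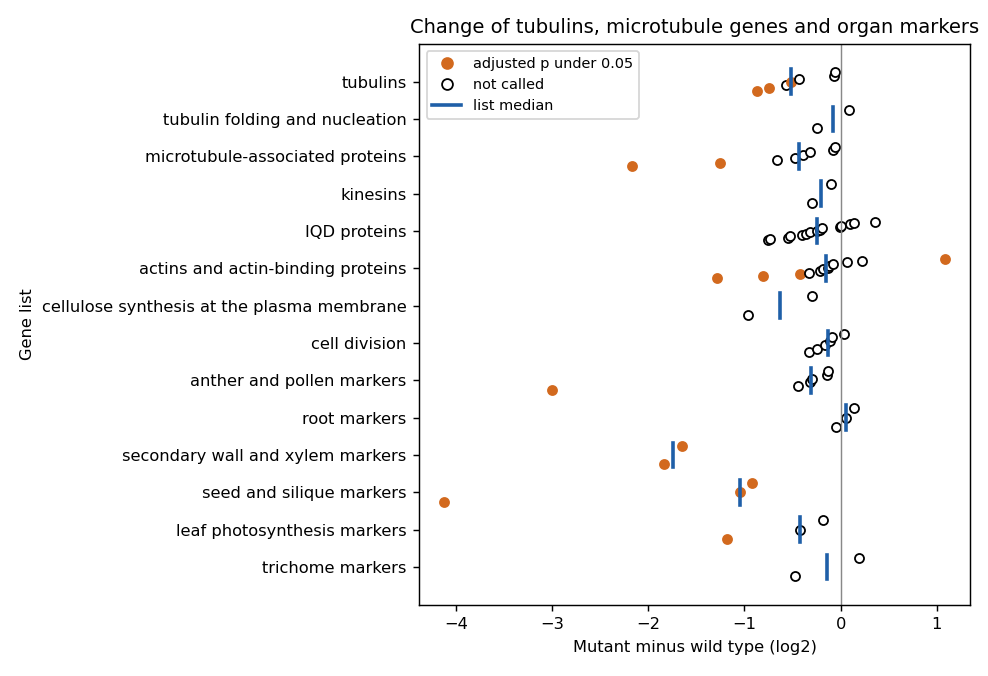
Mutant minus wild-type difference (log2, horizontal axis) of each probe set in the tubulin family and in each list (rows), filled orange where the limma adjusted p is under 0.05, with the list median as a blue bar. TUB1, TUB6 and TUB9 are the filled tubulin points, SP1L5 and AT3G23090 the filled microtubule-associated ones, and all members of the secondary wall and seed lists are filled on the left of 0.

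Several organ markers were lower in the mutant beside the tubulin genes. Of 19 probe sets in 6 organ lists, 7 fell and none rose, beside 3.28% and 2.34% of all probe sets. The lists were chosen with earlier results of these data known, so these counts are a description and no test. Most markers chosen for these lists had no named single-gene probe set, so the counts cover only the rest. Without mutant array 2, the members called lower in these and the cytoskeletal lists together numbered 3, against 12 with all arrays. Of all probe sets, 147 and 747 were called lower in these fits. Both secondary wall markers fell, which are the xylan synthesis genes IRX15 (-1.84 ± 0.17, limma adjusted p = 0.00523) and GUT2, also known as IRX10 (-1.65 ± 0.20, adjusted p = 0.00870, and 0.0518 without mutant array 2). Their summed level (log2 of the sum) lay between 9.84 and 10.37 on wild-type arrays and between 8.33 and 8.70 on mutant arrays. All 3 seed and silique markers fell, namely the oleosin gene OLEO3 (-0.92, limma adjusted p = 0.0340), DELTA-VPE of the seed coat (-4.12 ± 0.64, adjusted p = 0.0182) and BAN of seed coat tannin synthesis (-1.05, adjusted p = 0.0401). DELTA-VPE varied widely within the wild type, at 9.76, 10.17 and 7.64 on arrays 1, 2 and 3. OLEO3 and DELTA-VPE lost their calls in 4 of the 6 fits without 1 array and BAN in 5, and none of the 3 was called without wild-type array 1, wild-type array 2 or mutant array 2. Their summed level lay between 8.48 and 10.40 on wild-type arrays and between 6.93 and 7.08 on mutant arrays. DELTA-VPE had the highest value of the 3 on each wild-type array, so the drop of this sum mainly follows DELTA-VPE.

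Of 6 anther and pollen markers, ATA27, a beta-glucosidase gene of the tapetum, fell by 3.00 ± 0.18 (limma adjusted p = 0.00209). The list's summed level lay between 8.34 and 8.80 on wild-type arrays and between 7.29 and 7.59 on mutant arrays. ATA27 had the highest value of the list on each wild-type array, so the drop of the sum mainly follows this gene. With all 6 arrays, equal weights and no block, none of the other 5 was called. Their differences were -0.13 for ANX2, -0.14 for ANX1, -0.30 for EMS1, -0.32 for AMS and -0.44 for SHT. SHT was called lower with array number as a block (limma adjusted p = 0.0412), where 5.15% of all probe sets were. The pollen tube receptor kinase genes ANX1 and ANX2 were near or within the bacterial range in both genotypes (4.56 and 4.29 in the wild type). AMS (4.63 in the wild type and 4.31 in the mutant) and the mutant means of SHT (4.53) and ATA27 (4.77) were also near or within that range. The tubulin genes known from pollen differed from each other beside these markers, TUB9 being lower by 0.52 and TUA1 by 0.07. Their wild-type means were 11.45 and 9.18, and how much of that signal came from pollen was not tested. LHCB4.3 fell by 1.18 among 3 leaf photosynthesis markers (limma adjusted p = 0.0237, lost in 3 of the 6 fits without 1 array), and the list's summed level lay between 14.43 and 14.66 on wild-type arrays and between 14.13 and 14.34 on mutant arrays. None of 3 root markers and 2 trichome markers was called, and their summed levels overlapped between genotypes. The largest differences in these lists were 0.14 for EXPA18 and -0.47 for TRY. The part of organ make-up in the tubulin differences was not tested.

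Finally, genes with a pattern like that of the tubulins were sought among 5920 other single-gene probe sets with a mean above the median of all. Likeness was the root mean square difference, over the 6 arrays, between a gene's values centred on their own mean and the median of the centred tubulin values. This median pattern read 0.24, 0.20 and 0.34 on the wild-type arrays and -0.07, -0.43 and -0.33 on the mutant arrays. The nearest were AT4G23740 (a root mean square difference of 0.0510), AT1G80690 (0.0591), SETH3 (0.0800), LIP1, which codes for a small GTPase of the circadian clock (0.0800), and AT4G33700 (0.0812). Among the tubulins themselves the distance was 0.0587 for TUA6, 0.0909 for TUB9 and 0.136 for TUB6. It was 0.204 for TUB7, 0.231 for TUB1, 0.242 for TUA1 and 0.332 for TUB5. All members but TUA6 lay farther from the median pattern than the 5 nearest genes. Those 5 were picked as the closest of 5920 probe sets, so this does not show that the tubulins are less alike. The distance also grows where a gene falls by more or by less than the median pattern. Of the 5 nearest genes, AT4G33700 was called, with a difference of -0.63 (limma adjusted p = 0.0185), and the other differences ran from -0.61 for AT1G80690 to -0.41 for LIP1.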

How the data were processed

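Biotin-labelled RNA of whole plants was measured on Affymetrix arrays, 1 per sample and 3 per genotype. The authors deposited 1 log2 value for each probe set and array. The submitters' processing notes name GCOS (version 1.1.2) and RMA but not their role or order, and other settings are not given in the sources used here. Values ran from 3.35 to 14.5 and array medians from 7.03 to 7.08, and no further normalization was applied.

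Tests covered 22746 probe sets, after removal of 64 Affymetrix controls. The platform annotation paired 13513 of them with 1 gene, 503 with several and 8730 with none. Symbols were updated through the gene number to RefSeq's gene table (assembly TAIR10.1, 13436 matched). No coordinates and no sequences were used. Tubulin coding sequences are alike, and cross-hybridisation between them was not tested.

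Genotypes were compared with limma 3.58.1 in R 4.3.3 (lmFit and eBayes, 6 arrays, no covariates). The precision rests on 3 arrays per genotype. Same-numbered arrays shared their deviations from the genotype mean. Their correlations across probe sets were 0.433, 0.292 and 0.471 for numbers 1, 2 and 3, against -0.411 to 0.120 for different numbers. The number was therefore fitted as a block in an alternative fit, a pairing that rests on the data alone. The main fit, which gave the calls, left this pairing out. Deviations from a genotype mean cancel out within the genotype, so the correlations for same and for different numbers are not independent of each other. Alternatives were the replicate block, leaving out each array, quantile normalization, subtracted array medians, a filter that drops the lowest 33.3% of probe sets by mean, an intensity trend with robust eBayes, and array weights. A fit without both arrays numbered 3 was added after seeing the data.

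The members and lists were chosen with earlier results of these data known. The text names every tubulin member, from each list the called members with the lowest adjusted p (up to 3) or, where none was called, the largest difference, and the 5 genes nearest in pattern. Others are named to complete a short list or a count, or as organ checks.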

Additional observations from a re-analysis of the deposited data

How the results depend on the processing

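These results rest on 3 arrays per genotype, and the calls depended on which array was left out. All 7 tubulin differences kept their sign under quantile normalization, subtracted array medians, the replicate block, the filter on low means, the robust fit with a trend, array weights and the fit without both arrays numbered 3. Of the fits that left out 1 array, which put TUB5 between -0.22 and 0.07, TUB5 turned to 0.06 without wild-type array 1 and to 0.07 without mutant array 3, and no other member changed sign. The median tubulin difference lay between -0.55 and -0.46 in all settings. The tubulins called lower numbered 3 with all arrays, 5 with array weights, 1 without both arrays numbered 3 (added after seeing the data) and 0 to 4 when 1 array was left out, with 0 called higher in every setting. The cause was not tested. With the replicate block 1171 probe sets were lower and 1053 higher, against 747 and 532 without it. Array weights gave 1560 and 1286, and the fit without both arrays numbered 3 gave 1023 and 973. Leaving out 1 array gave 147 to 947 lower and 108 to 797 higher. Over all lists of microtubule genes and organ markers, 12 were called lower and 1 higher, and 3 to 10 and 0 to 1 when 1 array was left out. The replicate block changed no tubulin call.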
